A study of Mus musculus with 20 samples.

Results

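The cells described here are regulatory follicular T (Tfr) cells of mouse spleen, split by whether their *Foxp3* messenger RNA was captured. Of 28192 follicular T cells with RNA, the authors placed 11650 in a cluster named Tfr, and 6600 of these (56.7%) had a *Foxp3* value above 0 while 5050 had a value of 0. The former are called *Foxp3*-detected and the latter *Foxp3*-undetected. The members were thus chosen by their measured *Foxp3* value, so its own values are a description, and every other gene was compared between the sides within each mouse.

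All cells came from C57BL/6 bone marrow chimeras that were irradiated and sacrificed 10 weeks later, and CD45.2+CD45.1- T cells positive for CD4, CXCR5 and PD1 were sorted from the spleen into a separate 10x 5′ gene expression library and T cell receptor (TCR) library for each mouse. The 5 WT chimeras received congenic WT marrow and were immunised with NP-OVA in alum at week 6. For the non-autoimmune chimeras the paper's methods also describe a later booster of NP-OVA. The 5 mixed 564Igi chimeras received WT marrow together with marrow of 564Igi mice, whose B cells carry knocked-in heavy and light chains that recognise ribonuclear complexes of the body, and the labels name no immunisation for them. Both groups hold mice labelled male and female, and the T cells of a 564Igi chimera may descend from either marrow. The labels give no ages, while the paper describes recipients up to 10 weeks old at irradiation and marrow donors from 6 weeks old. Immunisation and the normalisation, which the authors ran on each group separately, cannot be told apart from the group.

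Foxp3 is a forkhead transcription factor encoded on the X chromosome that sets up and maintains regulatory T cells. Tfr cells are regulatory T cells that enter B cell follicles with the help of the chemokine receptor CXCR5, where they restrain follicular helper T (Tfh) cells and germinal centre B cells. In droplet sequencing a transcript is counted only where a molecule of it was captured, so a cell without a *Foxp3* count may still contain the message. Such a cell stands in the Tfr cluster through its other genes.

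The *Foxp3* values fell on whole corrected counts. A count of 0 was found in 5050 cells, a count of 1 in 2884 cells, a count of 2 in 1568 cells and a count of 3 or more in 2148 cells, with a highest count of 13. The 2884 cells just inside the rule therefore differ from the 5050 cells just outside it by a single corrected count. The *Foxp3* gene lies at chrX:7573644-7595245 on the plus strand of GRCm38.

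The detected share lay between 48.5% and 62.4% in the 10 mice. In WT chimeras it was 61.8% in mouse 11, 53.1% in mouse 12, 55.4% in mouse 14, 56.1% in mouse 23 and 55.8% in mouse 36, and in 564Igi chimeras it was 62.4% in mouse 13, 56.7% in mouse 17, 54.6% in mouse 21, 48.5% in mouse 24 and 56.0% in mouse 34. The groups overlapped over most of this range, with means of 56.5% ± 3.20 in WT and 55.6% ± 4.99 in 564Igi (SD, n = 5 each, two-sided exact permutation p = 0.841). Detected cells held on average 2.19 ± 0.124 corrected *Foxp3* counts in WT and 2.23 ± 0.107 in 564Igi (n = 5 each, exact permutation p = 0.532). Neither comparison shows that the groups were alike. The sign of the first turns without WT mouse 11 (0.515 percentage points, 564Igi minus WT) or without 564Igi mouse 24 (0.982).

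**Figure D1:**
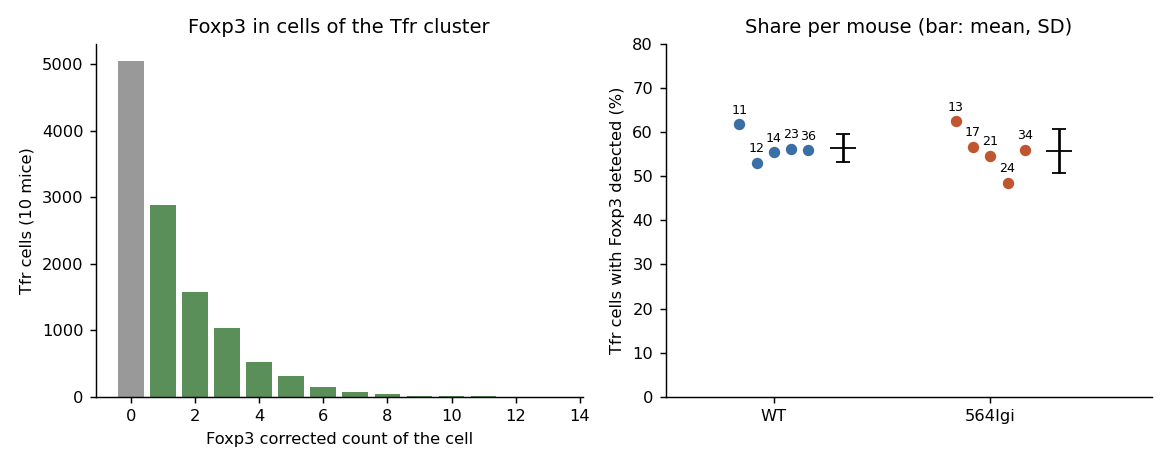
Left, number of Tfr cells of the 10 mice (vertical axis) at each *Foxp3* corrected count (horizontal axis), with the 5050 cells at 0 in grey. Right, percent of each mouse's Tfr cells with *Foxp3* detected, 1 point per mouse with its number, and a bar for the mean with its SD. The 10 shares lie between 48.5% and 62.4%, and the WT and 564Igi points overlap.

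The share followed depth in part. With the Tfr cells ordered by raw unique molecular identifiers (UMIs) and divided into 10 classes of like size, the detected share was 47.6% in the shallowest (2001 to 2327 UMIs), 64.8% in the class before the deepest (5025 to 6371 UMIs) and 57.0% in the deepest. The clusters named as Tfh had lower shares at like depth. The share averaged 7.20% ± 2.93 (SD, n = 10 mice) in activated Tfh cells at a median of 3547 UMIs, 4.33% in Sostdc1 cells, 4.08% in effector Tfh cells and 7.22% in central memory Tfh cells, compared with 56.0% ± 3.98 in Tfr cells at a median of 3461 UMIs. Interferon-stimulated (ISG) Tfh cells stood between them, at 26.1% ± 5.14 and a median of 3893 UMIs. Whether the counts in Tfh clusters come from free RNA or from cells that hold the message was not tested.

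The sides differed in general cell properties as well. The median number of genes per cell was 1665 ± 146 on the detected side and 1593 ± 128 on the undetected side (SD, n = 10 mice), with a difference of 72.1 ± 42.5 that ranged from 3 to 141.5 and was positive in 10 of 10 mice (two-sided exact sign-flip p = 0.00195, the smallest 10 mice allow, and 0.00781 adjusted over 8 cell properties). Median UMIs were 3556 compared with 3362, higher in 9 of 10 mice (exact sign-flip p = 0.00391, adjusted 0.0104). The mitochondrial share of UMIs was 3.02% on the detected side and 3.44% on the undetected side, lower in 10 of 10 mice (difference -0.415 ± 0.0953 percentage points, exact sign-flip adjusted p = 0.00781). The small-subunit ribosomal share (difference -0.287, adjusted p = 0.0156) and the S phase score (-0.00517, adjusted p = 0.0156) were also lower by the same exact test. The large-subunit ribosomal share, G2M score and heat shock score did not pass (adjusted p = 0.130, 0.132 and 0.193). Depth and mitochondrial share thus move with the split, and the count of genes that differed was repeated with sides matched on each.

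Of 9993 genes tested, 29 (0.29%) passed an adjusted p below 0.01 with a mean difference above 0.2 in size, 24 higher (0.24%) and 5 lower (0.05%) in detected cells. Differences are given as detected minus undetected on the scale of log2(corrected count + 1), as means per mouse and side that were then averaged over 10 mice, with the standard error and adjusted p of a limma fit with its variance trend. All 29 had the same sign in 10 of 10 mice, and in 9 of them the 10 values of the sides did not overlap (26 of all 9993 genes, 0.26%, were separated in this way). At an adjusted p below 0.05 with no limit on size, 1713 genes (17.1%) passed, 1326 higher (13.3%) and 387 lower (3.87%). On this scale most of them were thus not among the 29 called. On log2 of the mean corrected count, 732 genes passed the limits used for the 29. At an adjusted p below 0.05, the balance of higher and lower genes changed with the setting. With sides matched on raw UMIs 905 genes rose and 628 fell, and with sides matched on the mitochondrial share 1081 rose and 387 fell. In sister cells of the same clonotypes, described below, 123 rose and 21 fell. That setting used 46 to 400 cells per mouse and side, against 190 to 912 in the main comparison. The part of fewer cells in these counts was not tested. The median over all genes was 0.00362 (0.000639 with matched UMIs), and 67.1% of genes were positive. The 3 largest differences were those of receptors of the tumour necrosis factor (TNF) family.

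Stretches before the start of *Tnfrsf9* and *Tnfrsf1b* are printed because both receptors rose and each stretch holds a short STAT-type palindrome. Each line gives the part of the 250 bases before a RefSeq start in GRCm38.p6 that no GENCODE exon covers, 5′ to 3′ on the gene's strand, with the match to TTCNNNGAA in capitals.
Tnfrsf9, chr4:150927749-150927917, plus strand: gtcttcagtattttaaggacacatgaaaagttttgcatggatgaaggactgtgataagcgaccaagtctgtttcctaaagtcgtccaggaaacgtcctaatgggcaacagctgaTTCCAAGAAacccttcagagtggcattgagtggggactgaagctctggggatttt
Tnfrsf1b, chr4:145246871-145247120, minus strand: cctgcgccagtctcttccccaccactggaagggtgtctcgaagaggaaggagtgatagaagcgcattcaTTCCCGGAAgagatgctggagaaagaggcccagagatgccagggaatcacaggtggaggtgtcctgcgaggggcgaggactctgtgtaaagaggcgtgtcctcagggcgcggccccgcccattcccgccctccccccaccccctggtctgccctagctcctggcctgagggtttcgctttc
The same window of *Tnfrsf18* also has a TTCNNNGAA, but GENCODE places the start of that gene further upstream, so that the match lies in its first exon there. A kappa B-type motif (GGGA, any base, TT, any base, CC), the type bound by NF-kB, stands before this RefSeq start of *Tnfrsf9*, likewise in a GENCODE exon of the gene. The window of *Tnfrsf4*, of which 166 bases lie in the last exon of *Sdf4*, holds neither motif. A further start of *Tnfrsf9* in the RefSeq table has neither. Searched on both strands of the 300-base windows of the table, which also take in 50 bases after the start, TTCNNNGAA was present in 8.30% of all 32851 promoters (9.55% of 27025 genes) and in 6 of the 17 higher genes that matched the table, namely *Gimap7*, *Sdf4*, *Shisa5*, *Tnfrsf18*, *Tnfrsf1b* and *Tnfrsf9*. None of the 4 matched lower genes held it. The kappa B-type motif was present in 1.20% of promoters and in 2 of the 17, and the forkhead-type TGTTTAC in 3.65% of promoters, in 0 of the 17 and in 1 of the 4, *Tcf7*. A match in these letters is a description of the sequence and not a binding site. *Cd2*, *Cd74*, *Ikzf2*, *Ly6e*, *Reep5*, *S100a10*, *Selplg* and *mt.Nd4l* had no entry.

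*Tnfrsf18* encodes GITR, a costimulatory receptor long used to mark regulatory T cells. Its level ran from 0.99 through a median of 1.19 to 1.23 over the 10 mice in undetected cells, and from 1.51 through 1.59 to 1.79 in detected cells, so the lowest detected value lay above the highest undetected one. The difference was 0.46 ± 0.02 (SE, adjusted p = 3.5e-17, limma), with the transcript found in 70.2% of undetected and 85.7% of detected cells, and the mean corrected count was 1.57 times as high. *Tnfrsf4* (OX40) ran from 1.51 through 1.63 to 1.88 in undetected and from 1.98 through 2.07 to 2.31 in detected cells, also without overlap, and differed by 0.44 ± 0.03 (adjusted p = 1.1e-15). *Tnfrsf9* (4-1BB) ran from 0.64 through 0.84 to 1.03 in undetected and from 1.13 through 1.27 to 1.46 in detected cells, and differed by 0.44 ± 0.03 (adjusted p = 3.2e-14), again with separate sides. *Tnfrsf1b*, which encodes the TNF receptor 2, was rarer and was found in 29.8% of undetected and 45.3% of detected cells. Its difference was 0.23 ± 0.02 and its mean corrected count was 1.73 times as high, although the sides overlapped. In the list of 18 TNF receptor and NF-kB genes, 4 were called, 10 rose and 1 fell at an adjusted p below 0.05 (all genes 13.3% and 3.87%), and the median was 0.0304. The 4 called are the receptors just named, which are also members of the list of regulatory T cell identity below. *Traf1*, an adaptor of these receptors, rose by 0.11, while *Nfkb1*, the p105 subunit of NF-kB, fell by 0.05 and *Relb* and *Birc3* did not pass (adjusted p = 0.475 and 0.129).

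*Tnfrsf18* (chr4:156026164-156028895), *Tnfrsf4* (chr4:156013843-156016612) and the called gene *Sdf4* (chr4:155992872-156013610) are neighbours on the plus strand. In GENCODE *Sdf4*, which encodes a calcium-binding protein of the Golgi, ends 233 bases before *Tnfrsf4* starts, and *Tnfrsf4* ends 9552 bases before *Tnfrsf18*. *Sdf4* differed by 0.29 ± 0.03 (adjusted p = 1.1e-09), from 1.42 to 1.79 in undetected and from 1.62 to 2.29 in detected cells. The genes on either flank did not pass, *B3galt6* with a difference of -0.01 (adjusted p = 0.305) and *Ube2j2* with -0.02 (adjusted p = 0.0799). Whether reads of *Sdf4* and *Tnfrsf4* can be told apart over so short a gap was not tested.

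Among the other receptors and regulators of regulatory T cells, *Ctla4*, the inhibitory receptor that binds CD80 and CD86, ran from 0.62 through 0.75 to 0.98 in undetected and from 0.98 through 1.08 to 1.18 in detected cells. The sides came close without overlapping, and the difference was 0.31 ± 0.02 (adjusted p = 1.7e-14). *Ikzf2* encodes Helios, a transcription factor of regulatory T cells, and was found in 86.5% of undetected and 93.6% of detected cells. Undetected cells stand in the cluster through their other genes, so a high *Ikzf2* level there is a description. Its levels ran from 1.56 through 1.80 to 2.18 and from 1.72 through 2.11 to 2.29, overlapped widely, and differed by 0.25 ± 0.03 (adjusted p = 2.1e-07). *Il2ra*, the α chain of the IL-2 receptor, was sparse, in 7.99% of undetected and 14.7% of detected cells. It rose by 0.10 ± 0.01 (adjusted p = 3.5e-10, 10 of 10 mice), short of the limit of 0.2 although its mean corrected count was 2.28 times as high. *Izumo1r* (folate receptor 4) rose by 0.16 ± 0.03 (adjusted p = 2.0e-04) in 8 of 10 mice. *Icos* and *Tigit* rose by 0.19 each, *Il2rb* by 0.16, *Cd83* by 0.12 and *Ikzf4* (Eos) by 0.08, none past the limit on size. *Lag3* and *Nrp1* gave differences of -0.01 each (adjusted p = 0.821 and 0.787), positive in 4 of 10 mice for each.

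Of the 34 genes in the list of regulatory T cell identity, 33 were tested, 8 were called, all higher, and 29 rose at an adjusted p below 0.05 with none lower (all genes 13.3% and 3.87%), with a median of 0.0588. The 8 are *Tnfrsf18*, *Tnfrsf4*, *Tnfrsf9*, *Tnfrsf1b*, *Capg*, *Ctla4*, *Ikzf2* and *Cd81*. *Capg*, an actin-capping protein, ran from 0.74 through 0.92 to 1.16 and from 0.96 through 1.34 to 1.60 and differed by 0.40 ± 0.02. *Cd81*, a tetraspanin, differed by 0.22 ± 0.02. The corrected counts summed over the list were 29.5 to 35.4 per undetected cell and 37.5 to 47.7 per detected cell over the 10 mice, with no overlap. In the IL-2 and STAT5 list 9 of 14 genes tested rose and 3 fell (median 0.0367), none called, and *Bcl2*, a survival gene, fell by 0.13. This list shares *Il2ra*, *Il2rb* and *Socs2* with the regulatory list.

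Of the remaining higher genes, *Itgb7* is in the list of memory and homing genes, *Cd74* is a B cell marker described below, and the others are in none of the lists. *AW112010*, annotated as a long intergenic RNA, differed by 0.36 ± 0.03, *Ly6e*, a GPI-anchored surface protein, by 0.29 ± 0.02, *Gimap7*, a GTPase of lymphocytes, by 0.27 ± 0.02 and *Cyba*, a subunit of NADPH oxidase, by 0.26 ± 0.02. *S100a10*, the partner of annexin A2, differed by 0.26 ± 0.02, *Shisa5*, a membrane protein of the endoplasmic reticulum, by 0.24 ± 0.02 and *Itgb7*, the integrin β7 chain, by 0.22 ± 0.02. Only *Cyba* of these 7 had separate sides (1.48 to 1.63 in undetected and 1.70 to 1.89 in detected cells). The other 7 of the 24 higher genes are named after their values were seen and lay between 0.20 and 0.23. They are *Selplg*, *Pglyrp1*, *Cst7*, *Cd2*, *Itm2c*, *Ccr8* and *Reep5*. *Ccr8*, a chemokine receptor of tissue regulatory T cells, also had separate sides (0.25 to 0.34 and 0.39 to 0.63).

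*Cd74*, the invariant chain of MHC class II and a B cell marker here, differed by 0.34 ± 0.02 (adjusted p = 2.4e-15), from 0.64 through 0.83 to 1.20 in undetected and from 0.97 through 1.21 to 1.53 in detected cells. The 10 B cell genes in the matrix summed to 1.45 to 3.62 corrected counts per undetected cell and 1.86 to 4.12 per detected cell, higher in 9 of 10 mice (exact sign-flip p = 0.0547). Without *Cd74* the other 9 summed to 0.175 to 1.04 and 0.227 to 0.685, higher in 5 of 10 mice (exact sign-flip p = 0.516). Of 7 cytotoxic and CD8 genes the sum was 0.266 to 1.10 in undetected and 0.481 to 1.34 in detected cells. It was higher in 9 of 10 mice (exact sign-flip p = 0.00586). Of the 5 tested, 2 rose and 1 fell at an adjusted p below 0.05 (all genes 13.3% and 3.87%). Their median was 0.00923, from -0.0266 to 0.06 in *Ccl5*. Myeloid genes summed to 0.460 to 1.96 and 0.652 to 0.925 (p = 0.195 by the same exact test), of which *Cst3* alone (difference 0.07) was in 1% of cells or more, and erythroid genes to at most 0.0334. None of these genes was at exactly 0 over all Tfr cells, and the part of such RNA in the split was not tested.

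**Figure D2:**
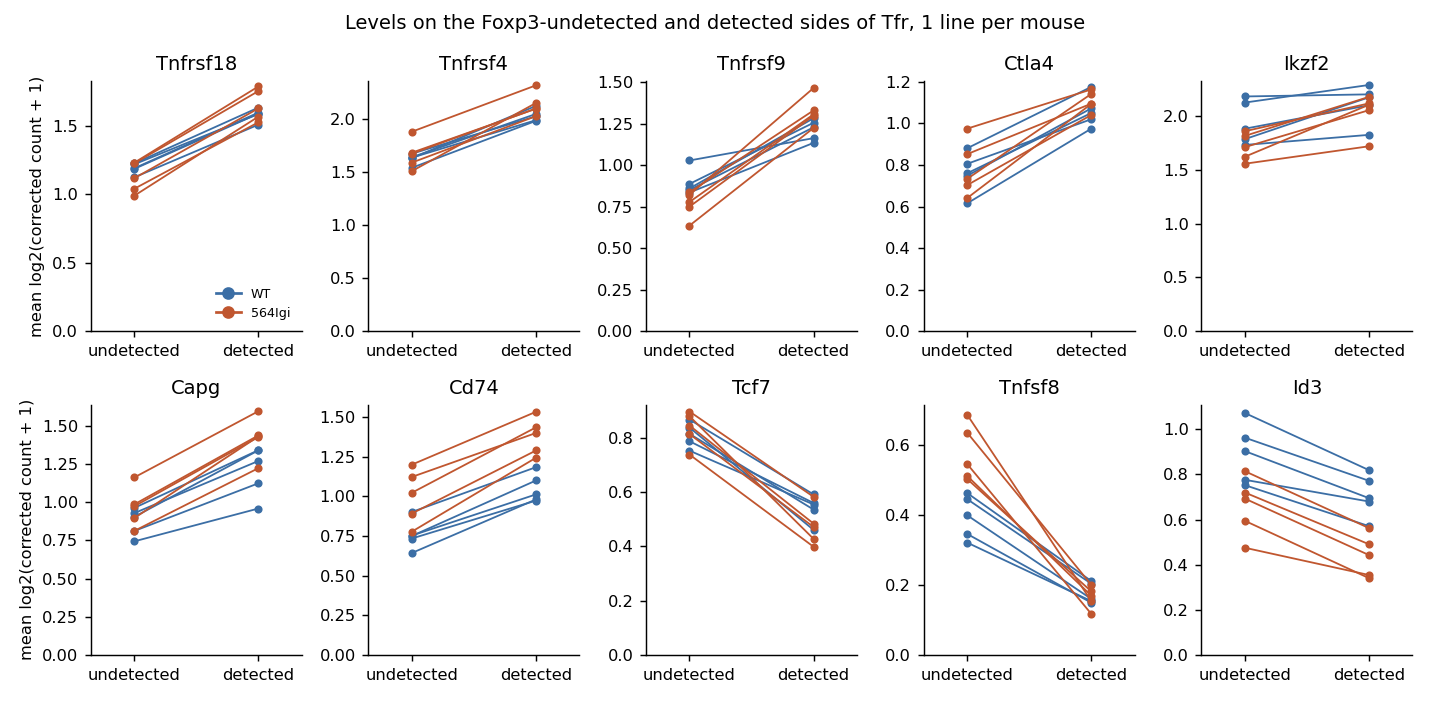
Mean log2(corrected count + 1) of 10 genes (vertical axis, 1 panel per gene) in *Foxp3*-undetected and detected Tfr cells, with 1 line per mouse (WT blue, 564Igi orange). *Tnfrsf18*, *Tnfrsf4*, *Tnfrsf9*, *Ctla4*, *Ikzf2*, *Capg* and *Cd74* rise in 10 of 10 mice, and *Tcf7*, *Tnfsf8* and *Id3* fall in 10 of 10.

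Of the 5 genes that fell in detected cells, *Tnfsf8* and *Id3* are in the Tfh list and *Tcf7* is in the list of genes known to be repressed by Foxp3. *Tcf7* encodes TCF-1, a transcription factor of naive, memory and Tfh cells, and ran from 0.74 through 0.83 to 0.90 in undetected and from 0.40 through 0.51 to 0.59 in detected cells. The sides were separate, the difference was -0.32 ± 0.02 (adjusted p = 1.6e-16), and the transcript was found in 54.8% of undetected and 37.9% of detected cells. *Tnfsf8*, the CD30 ligand and a marker of the activated Tfh cluster, ran from 0.32 through 0.48 to 0.69 and from 0.12 through 0.16 to 0.21. Its difference was -0.32 ± 0.02 (adjusted p = 2.6e-14), and the mean corrected count of detected cells was 0.262 times that of undetected cells. *Id3*, an inhibitor of E proteins, ran from 0.48 through 0.76 to 1.07 and from 0.34 through 0.57 to 0.82, overlapped, and differed by -0.20 ± 0.02 (adjusted p = 7.7e-13). *Dennd2d*, a DENN-domain protein, differed by -0.21 ± 0.01 with separate sides, and *mt.Nd4l*, a mitochondrially encoded subunit of complex I, by -0.21 ± 0.02. All 13 mitochondrial protein-coding genes tested were negative and 12 fell at an adjusted p below 0.05, beside the lower mitochondrial share given above.

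Of 24 genes in the list of the Tfh helper programme, 2 were called, *Tnfsf8* and *Id3*, both lower, and 15 fell and 3 rose at an adjusted p below 0.05 (all genes 3.87% and 13.3%), with a median of -0.0525. *Cd40lg*, the CD40 ligand through which helper cells license B cells, ran from 0.27 through 0.35 to 0.44 in undetected and from 0.11 through 0.14 to 0.19 in detected cells. Its sides were separate, and its difference of -0.199 ± 0.01 (adjusted p = 8.4e-15) stopped just short of the limit. *Il21*, a helper cytokine, was found in 10.2% of undetected and 2.88% of detected cells and fell by 0.10 (adjusted p = 1.2e-11), with a mean corrected count 0.229 times as high. *Il4* fell by 0.05, *Sostdc1* by 0.12, *Slamf6* by 0.17, *Pdcd1* by 0.15 and *Cxcr5* by 0.06. *Bcl6*, the transcription factor of the follicular fate, differed by only -0.02 ± 0.01 (adjusted p = 0.0179). The 3 that rose were *Batf* (0.11), *Maf* (0.10) and *Gpr183* (0.04).

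**Figure D3:**
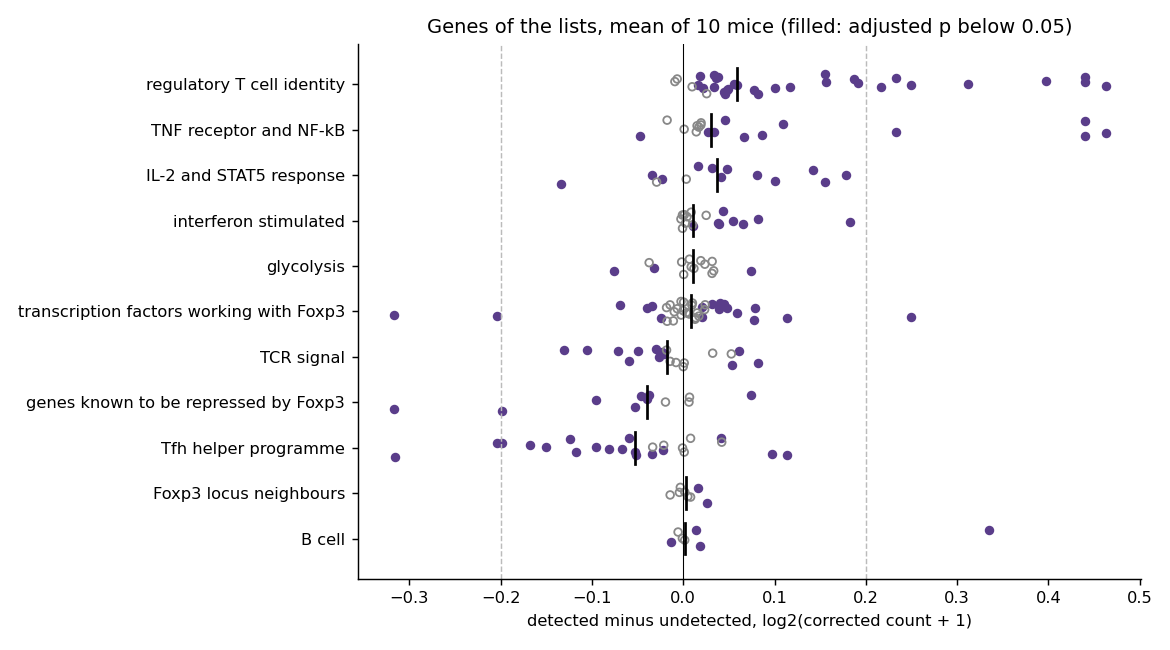
Difference between *Foxp3*-detected and undetected Tfr cells (horizontal axis, log2(corrected count + 1), mean of 10 mice) for the tested members of each list (rows), 1 point per gene with a line at the list's median. Most members of the regulatory list lie above 0 (29 of 33 rose) and most of the Tfh list lie below 0 (15 of 24 fell), while the median of all genes is 0.00362.

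Of 14 genes known to be repressed by Foxp3, 11 were tested and 1 was called (*Tcf7*). At an adjusted p below 0.05, 7 fell and 1 rose, with a median of -0.0394 (all genes 3.87% and 13.3%, for the main counts of this paragraph). The riser was *Il7r*, the IL-7 receptor (0.07, adjusted p = 3.0e-07), while *Satb1* and *Lef1* did not pass (adjusted p = 0.0803 and 0.739). *Cd40lg*, *Il21* and *Il4* are in this list and in the Tfh list. *Tcf7*, *Satb1*, *Lef1* and *Id2* are in this list and among the transcription factors that follow. The lists thus share members, and their counts are not separate results. Of 41 transcription factors known to work with Foxp3, 40 were tested, of which 12 rose and 6 fell (median 0.00812), *Foxo1* rising by 0.08 and *Foxp1* falling by 0.07. In the TCR signal list 9 of 19 fell and 3 rose (median -0.0183), among them *Egr2* (-0.13), *Egr1* (-0.11) and *Nr4a1* (-0.06), but in sister cells the list turned to 2 higher and none lower (median 0.00886). Inhibitory receptors split, with 4 of 8 higher and 3 lower, as did memory and homing genes, with 6 of 13 higher and 3 lower. Interferon-stimulated genes rose in 8 of 17 with none lower, the largest being *Ifi27l2a* (0.18), and in 5 with sides matched on raw UMIs or on mitochondrial share and in none in sister cells. Glycolytic genes rose in 1 of 14 and fell in 2, a count that became 3 higher and none lower with matched mitochondrial share and 1 higher and 3 lower with matched UMIs. Over all 9993 genes, 905 rose and 628 fell with matched UMIs, 1081 and 387 with matched mitochondrial share, and 123 and 21 in sister cells.

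The neighbours of *Foxp3* on the X chromosome had differences between -0.0144 and 0.0257. Of the 8 tested, 2 rose at an adjusted p below 0.05 and none fell (all genes 13.3% and 3.87%), with a median of 0.00331. With matched UMIs 1 rose and 1 fell, beside 905 and 628 of all 9993 genes. *Ppp1r3f* rose by 0.02 (adjusted p = 6.4e-04) and *Ccdc22* had a difference of -0.01 (adjusted p = 0.0648). *Flicr*, a noncoding RNA whose annotation overlaps that of *Foxp3*, was found in 3.67% of undetected and 4.57% of detected cells and did not pass (0.01, adjusted p = 0.124).

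The levels of several called or listed genes moved with the *Foxp3* corrected count of the cell. *Tnfrsf18* averaged 1.15 in cells with a *Foxp3* count of 0, 1.47 with 1, 1.66 with 2 and 1.78 with 3 or more, and *Ctla4* 0.77, 0.99, 1.11 and 1.20. *Tcf7* averaged 0.82, 0.59, 0.51 and 0.39 in the same order, and *Tnfsf8* 0.49, 0.20, 0.18 and 0.12. *Il2ra* averaged 0.10, 0.13, 0.21 and 0.28. By contrast *Ikzf2* averaged 1.83, 2.04, 2.11 and 2.10 and *Cd74* 0.88, 1.16, 1.27 and 1.25, and so gained little past a count of 1 or 2. For all 29 called genes, the mean at 3 or more lay beyond the mean at 1 in the direction of the call. The 29 were called from these same cells, with the 3 or more class on the detected side, so this count is a description. The share of all genes that met it was not counted. These classes share their mice, follow depth as given above, and held at least 34 cells in each mouse.

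**Figure D4:**
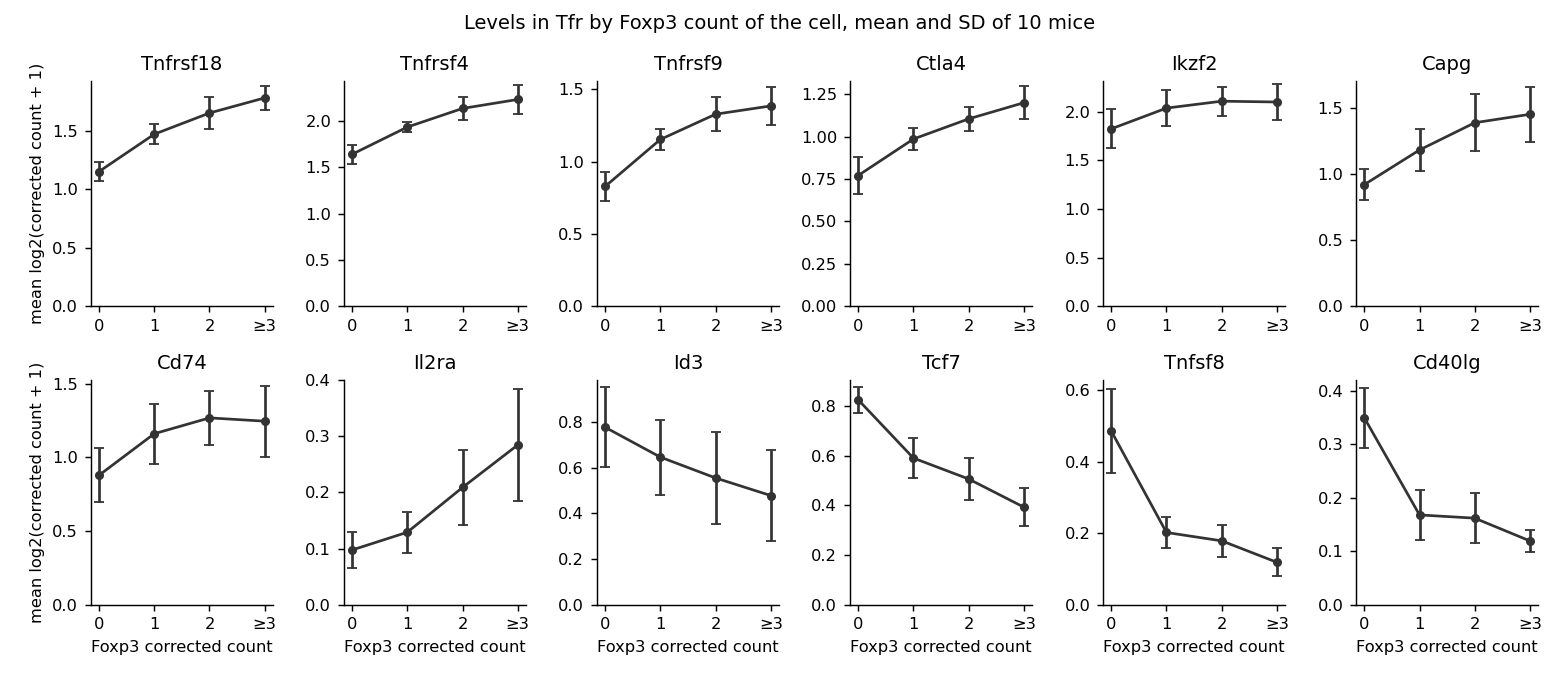
Mean log2(corrected count + 1) of named genes (vertical axis) in Tfr cells with a *Foxp3* corrected count of 0, 1, 2 or at least 3 (horizontal axis), as means over 10 mice with SD. *Tnfrsf18* climbs from 1.15 to 1.78 and *Tcf7* falls from 0.82 to 0.39.

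With sides matched on raw UMIs 30 genes were called, and the 29 kept a median of 0.990 of their difference. With sides matched on the mitochondrial share, an alternative chosen after seeing the data, 18 were called, 17 of them among the 29, and the median ratio was 0.866. The barcodes of 988 cells occurred in more than 1 library, 418 of them Tfr cells (3.59%), and of 292 such barcodes with clonotypes in more than 1 library, 0 had the same clonotype.

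The *Foxp3* rule did not use the TCR sequences, but whether a cell lies inside or outside Tfr comes from the cluster names, which rest on expression. A clonotype is the set of cells of a mouse with the same listed pair of CDR3 amino acid sequences, and 8780 Tfr cells (4992 detected and 3788 undetected) carried 4760 clonotypes. Of the 1062 clonotypes with 2 or more Tfr cells, 669 had cells on both sides, 241 were wholly detected and 152 wholly undetected. Among the 98 clonotypes with 10 or more Tfr cells, 96 had cells on both sides, with a median detected share of 57.3% and a range of 0% to 84.6%. With 56.7% of all Tfr cells detected, a random division of cells would also put nearly all clonotypes of this size on both sides. The numbers a random division gives were not computed, so these counts are a description.

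The CDR3 sequences of 3 clonotypes are shown, one of the 2 largest in Tfr and those with the highest and the lowest detected share among clonotypes of 10 or more Tfr cells.
Clonotype A, beta: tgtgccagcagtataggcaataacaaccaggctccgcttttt
Clonotype A, alpha: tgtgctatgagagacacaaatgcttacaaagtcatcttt
Clonotype B, beta: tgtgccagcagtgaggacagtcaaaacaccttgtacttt
Clonotype B, alpha: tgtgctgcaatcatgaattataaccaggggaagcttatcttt
Clonotype C, beta: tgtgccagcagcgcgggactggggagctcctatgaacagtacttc
Clonotype C, alpha: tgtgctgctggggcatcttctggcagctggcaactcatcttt
Clonotypes A and B came from 564Igi mouse 17. A had 78 Tfr cells, 51 detected (65.4%), and 5 cells elsewhere, and B had 13 Tfr cells, 11 detected (84.6%), and 1 cell elsewhere. Clonotype C, from WT mouse 12, had 19 Tfr cells with 0 detected and 109 cells outside Tfr. A single receptor was thus found with and without *Foxp3* counts in A and B, while C lay mostly outside the cluster.

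Undetected cells shared their clonotypes with Tfh clusters more often. The share of cells whose clonotype was also found outside Tfr was 28.3% ± 8.47 on the detected side and 39.7% ± 8.31 on the undetected side (SD, n = 10 mice), a difference of -11.4 ± 2.59 percentage points. On the detected side the values were 25.8%, 40.4%, 23.03%, 31.3% and 27.2% in WT mice 11, 12, 14, 23 and 36 and 25.9%, 45.2%, 25.1%, 19.3% and 19.9% in 564Igi mice 13, 17, 21, 24 and 34. On the undetected side they were 38.9%, 53.7%, 30.7%, 43.2% and 40.6% and 37.0%, 52.2%, 38.7%, 28.4% and 33.6% in the same order. Every mouse was lower on the detected side, with differences between -13.7 and -6.99 points (two-sided exact sign-flip p = 0.00195), although values of different mice overlapped. The border between Tfr and the other clusters rests on expression, *Foxp3* included, so this comparison is not independent of the split. Sharing differed by -11.2 points with activated Tfh cells and by -8.72 points with Sostdc1 cells (exact sign-flip adjusted p = 0.00488 each over 5 clusters), and by -1.62 points with effector Tfh cells (0.00651). Sharing with central memory and ISG cells did not pass (exact sign-flip adjusted p = 0.0781 and 0.668). The difference was -11.9 in WT and -10.9 in 564Igi chimeras (exact permutation p = 0.548).

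Read the other way, the detected share was 60.0% ± 5.00 among 5715 cells whose clonotype lay only in Tfr, 55.5% ± 5.15 among 2538 cells with up to 50% of their clonotype outside Tfr, and 12.9% ± 8.69 among 527 cells with more than 50% outside (mean of 10 mice, SD). In the last class the 10 mice ran from 0% to 27.6%, all below the lowest mouse of the first class at 49.0%, although 1 mouse had no more than 21 such cells. Cluster names rest on all genes of the cells, *Foxp3* among them, and these shares are a description of the same cells as the comparison above.

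**Figure D5:**
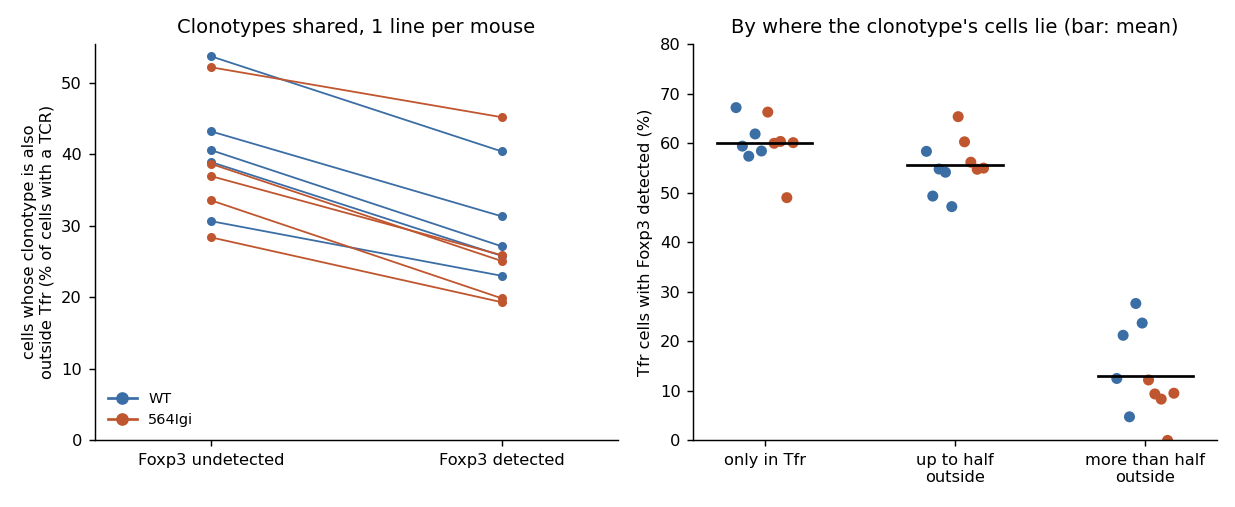
Left, percent of Tfr cells whose clonotype was also found outside Tfr (vertical axis) on the undetected and detected side, 1 line per mouse (WT blue, 564Igi orange), falling in 10 of 10 mice. Right, percent of Tfr cells with *Foxp3* detected by how much of their clonotype lay outside Tfr, 1 point per mouse, with the class above 50% between 0% and 27.6%.

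The share of cells in clonotypes of 2 or more Tfr cells was 57.0% on the detected and 54.5% on the undetected side (difference 2.44 points, exact sign-flip p = 0.279). A paired TCR was listed for 76.1% ± 16.3 and 76.5% ± 14.7 of cells (SD over mice, exact sign-flip p = 0.725). The lowest shares were those of WT mouse 36 (40.8% detected and 45.1% undetected side) and 564Igi mouse 34 (53.7% and 54.7%), which limits what can be found of their clonotypes. Without these mice, an alternative chosen after seeing the data, sharing outside Tfr differed by -10.8 points. Cells listed with 1 α and 1 β chain, whose absence can mark doublets, made up 83.3% and 84.2% (exact sign-flip p = 0.377).

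Sister cells of the same clonotypes allowed the split to be compared at equal receptor makeup, an alternative chosen after seeing the data that gave each clonotype the same weight on both sides and used 46 to 400 cells per mouse and side. All 24 higher genes stayed positive and all 5 lower genes negative, and the 29 kept a median of 0.595 of their difference. Sister cells are part of the cells from which the 29 were called, so the kept signs are a description and no separate test. Called there were 10 genes, 9 higher and 1 lower, of which 9 were among the 29. At an adjusted p below 0.05, 13 of the 33 regulatory genes rose and none fell, and of the 24 Tfh genes 5 fell and 1 rose. Of all 9993 genes, 123 rose and 21 fell in this setting. *Tnfrsf4* kept most of its difference (0.39, adjusted p = 2.0e-07), *Tnfrsf18* gave 0.28 (3.9e-05), *Ctla4* 0.20 and *Id3* -0.24 (2.0e-05). *Tcf7* gave -0.19 (adjusted p = 9.0e-04), *Tnfsf8* -0.07 (0.0232), *Cd74* 0.10 (0.165), *Ikzf2* 0.04 (0.691) and *Izumo1r* 0.00. With only clonotypes not found outside Tfr, 16 genes were called and the median ratio was 0.793.

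The split was then compared between conditions by the difference of the within-mouse differences, 564Igi minus WT. Of 9993 genes, 1 was called (0.01%), *Tnfrsf9*. Its difference was 0.38 in mouse 11, 0.13 in mouse 12, 0.37 in mouse 14, 0.42 in mouse 23 and 0.30 in mouse 36 of the WT group, and 0.64 in mouse 13, 0.49 in mouse 17, 0.55 in mouse 21, 0.53 in mouse 24 and 0.59 in mouse 34 of the 564Igi group. All 564Igi values lay above all WT values, with means of 0.56 and 0.32, and the gap was 0.24 ± 0.04 (SE, limma adjusted p = 0.00196). The call was lost without WT mouse 12 (0.19, adjusted p = 0.0207), without 564Igi mouse 13 (0.22, 0.0245), without mice 34 and 36 (0.23, 0.0310), in cells listed with 1 α and 1 β chain (0.18, 0.231), with limma without its trend (0.196) and with no filter on low genes (0.222). The levels themselves did not pass, at 1.21 in WT and 1.32 in 564Igi detected cells and 0.89 and 0.76 in undetected cells (limma adjusted p = 1 for each).

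At an adjusted p below 0.05, 24 genes (0.24%) differed in their split between conditions. *Tnfsf8* fell more in 564Igi (WT -0.22, 564Igi -0.41, gap -0.19, adjusted p = 4.4e-05, limma), as did *Cd40lg* (-0.15 and -0.25, gap -0.10, adjusted p = 0.00357) and *Il21* (-0.07 and -0.12, adjusted p = 0.0471). *Tnfrsf1b* rose more in 564Igi (0.17 and 0.30, adjusted p = 0.00862), as did *AW112010* (0.25 and 0.48, adjusted p = 0.0127). *Tnfrsf18* differed by 0.39 in WT and 0.53 in 564Igi and did not pass (adjusted p = 0.225). These genes were named after their values were seen. The mitochondrial share also fell more in 564Igi, by 0.499 compared with 0.331 percentage points (exact permutation p = 0.00794, 0.0794 adjusted over 10 values), and its part in these gaps was not tested.

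Between conditions within each side, the same 2 genes (0.02%) were called. *Gm42031*, a long noncoding RNA, was 0.57 in WT and 2.29 in 564Igi detected cells (gap 1.72 ± 0.17, limma adjusted p = 1.9e-05), and 0.60 and 2.41 in undetected cells (1.81 ± 0.18, adjusted p = 4.2e-06; 2 genes, 0.02%). *Ly6a*, which encodes the surface protein Sca-1, ran from 0.46 to 1.45 in WT and from 1.69 to 1.95 in 564Igi detected cells without overlap (0.93 ± 0.12, adjusted p = 0.00112), and from 0.58 to 1.38 and from 1.38 to 1.91 in undetected cells, where the highest WT mouse and the lowest 564Igi mouse overlapped (0.74 ± 0.11, adjusted p = 0.00375). Limma without its trend, and no filter on low genes, called 0 genes on either side (385 and 674 genes at an unadjusted p under 0.05 in detected cells, and 366 and 621 in undetected cells). The *Ly6a* call was also lost without WT mouse 11 or 564Igi mouse 24 in detected cells (0.88 and 0.92), and in undetected cells without any of WT mice 11, 12 and 23 and 564Igi mice 13, 21 and 24 and in cells listed with 1 α and 1 β chain (0.65 to 0.76). Within mice, *Ly6a* did not pass between the sides (0.06, adjusted p = 0.141, 6 of 10 mice higher), and its split was -0.03 in WT and 0.16 in 564Igi (adjusted p of the gap 0.0606). *Gm42031* was lower in detected cells in 10 of 10 mice (-0.08, adjusted p = 0.0211).

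Activated Tfh cells, with 859 of 11953 cells detected, were the comparison for what the split looks like outside Tfr. Of the 29 genes, 24 were also called with the same sign there, where 134 genes (1.34%) were called in all. *Tnfrsf18* differed by 0.46 in both (gap 0.00, adjusted p = 0.973), *Tnfrsf4* by 0.44 in Tfr and 0.41 in activated cells (0.834) and *Ctla4* by 0.31 and 0.39 (0.317). The gap between the within-mouse differences, Tfr minus activated, was called for 34 genes (0.34%), 14 higher and 20 lower, of which 5 were among the 29.

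*Ikzf2* had the widest gap of the 34, with a difference of 0.25 in Tfr and 0.80 in activated cells (gap -0.55 ± 0.06, adjusted p = 1.1e-05, 10 of 10 mice). The next lower genes were *Crip1* (-0.49), *S100a6* (-0.48), *Vim* (-0.45), *Lgals1* (-0.44), *Ass1* (-0.40), *S100a10* (-0.39), *Ifi27l2a* (-0.37), *S100a4* (-0.35) and *Itgb7* (-0.33). Of the 14 higher genes, 10 encode ribosomal proteins, a group described after its calls were seen. Of the 78 ribosomal protein genes tested (0.781% of all genes), the other 68 were not called, and the median difference was -0.0307 in Tfr and -0.158 in activated cells. The called genes include *Rplp1* (0.28), *Rps27* (0.27), *Rps21* (0.25), *Rps24* (0.24), *Rpl30* (0.23), *Rpl9* (0.23), *Rps9* (0.22) and *Rps15a* (0.22). *Tnfsf8* fell by 0.32 in Tfr and by 0.61 in activated cells (gap 0.29), but on log2 of the mean corrected count the gap turned to -0.58 (adjusted p = 0.0188). *Ly6a* was among the 14 (0.28) and *Gm42031* showed a gap of 0.00. *Id3* differed by -0.20 in Tfr and -0.02 in activated cells (gap -0.18 ± 0.03, adjusted p = 0.00188), short of the limit. Limma without its trend called 11 genes (9 higher, 2 lower) and no filter on low genes called 1. Activated cells gave at least 25 detected cells per mouse at a detected share of 7.20%, and the part of background RNA or of misplaced cells in this comparison was not tested.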

How the data were processed

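Cells, genes and receptors were measured by 10x 5′ RNA and TCR libraries of 5 WT and 5 564Igi chimeras. The authors aligned reads with Cell Ranger 4.0.0 to GRCm38 (mm10), filtered cells with Seurat 3.1.4, and normalised each condition separately with sctransform, regressing out mitochondrial, ribosomal and UMI content and heat shock score. The authors deposited expression as the natural log of 1 plus the corrected count, and the values lay within 3.6e-12 of whole counts, which are not raw counts and were not given to count models. The deposited cell table gives raw UMI and gene counts, the percent of UMIs in mitochondrial and ribosomal genes, cell cycle and heat shock scores and cluster names, and the deposited TCR table gives the CDR3 sequences of 33833 cells. Of these 84.4% were listed with 1 α and 1 β chain, and additional chains in the list may be incomplete. No doublet caller was run, and the sources used here name no step that removed doublets.

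Tfr cells numbered 392 to 1633 per mouse, with 1219754 to 6050363 raw UMIs in all and a median of 2742.5 to 4227 per cell. Values were averaged per mouse and side as log2(corrected count + 1). Tested were genes present in at least 1% of cells of 5 or more mice (9993 of 13798), with limma 3.58.1 (R 4.3.3) on within-mouse differences, with the prior variance following each gene's mean level and Benjamini-Hochberg adjustment. Sides were paired by mouse, which the design gives. A mouse entered with at least 20 cells. Single values were tested two-sided by exact sign flips over 10 mice (1024 patterns) or exact permutation over 252 assignments (smallest p 0.00794), with Python 3.11.15, numpy 2.4.6, pandas 2.3.3 and scipy 1.17.1. Limma was tested on simulated data of 9993 genes, where 100 of 100 split differences of 0.3 were recovered with 0 wrong calls. Positions came from GENCODE vM21. Values after ± are SDs over mice or limma's standard errors, as named.

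The genes named are the 15 largest called differences in each direction with 1 sign in 10 mice, called members of the lists, a set of Treg and Tfh genes whatever their result, and up to 10 called genes per direction in the other comparisons. The cells, lists and tests were chosen with earlier results of these data known. Alternatives covered the threshold, trend, filter, scale, depth and gene matching, chains, pairing, labelled sex, *Foxp3* count and each mouse left out, and those chosen after seeing the data are named as such. The sequence and counts of 1 clonotype are not reported here.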

Additional observations from a re-analysis of the deposited data

Results flagged for a closer look

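A single mouse stood apart from the others of its group in 3 of 62 groups examined, where chance gives about 1 in 20. The *Gm42031* difference was -0.28 in 564Igi mouse 34 and between -0.13 and -0.01 in the other 9 mice, and this mouse also had the highest *Gm42031* level on both sides. The *Tnfrsf4* difference was 0.64 in 564Igi mouse 17 and between 0.35 and 0.49 in the others. The *Tnfrsf9* level of undetected cells was 1.03 in WT mouse 12 and between 0.83 and 0.89 in the other 4 WT mice, and the gap between conditions in the *Tnfrsf9* split rests in part on this mouse.

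Effects differed between conditions in 3 results. The split of *Tnfrsf9* was wider in 564Igi by 0.24 (limma adjusted p = 0.00196), with every 564Igi mouse above every WT mouse. The fall of the mitochondrial share was larger in 564Igi, with a gap of -0.168 percentage points between differences of -0.331 and -0.499 (exact permutation p = 0.00794, 0.0794 adjusted over 10 values). The excess of clonotypes of 2 or more Tfr cells on the detected side was -2.22 points in WT and 7.10 points in 564Igi chimeras, a gap of 9.32 (exact permutation p = 0.0317, adjusted 0.159). The last 2 do not pass the adjustment.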

How the results depend on the processing

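The 29 calls of the split (24 higher, 5 lower) became 1713 at an adjusted p below 0.05 with no limit on size, 732 on log2 of the mean corrected count, 56 with a *Foxp3* count of 2 or more against 0, 18 with sides matched on mitochondrial share, 16 with only clonotypes not found outside Tfr and 10 in sister cells, and 27 to 34 with a mouse left out. Without the pairing by mouse (no replicate block) 23 genes were called, all among the 29, and the pairing changed this count by less than 1.5 times. Genes at an unadjusted p under 0.05 by limma, with no limit on size, numbered 2874 with the pairing and 1343 without it.

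The split by condition gave 1 gene, and 24 at the looser threshold, 6 on log2 of the mean corrected count, 4 in cells with 1 α and 1 β chain, 3 with matched UMIs, 2 with labelled sex as covariate, 0 without the trend (679 at an unadjusted p under 0.05), 0 with no filter (897) and 0 to 4 with a mouse left out, the 0 without WT mouse 12 or 564Igi mouse 13. Without mice 34 and 36, whose libraries are numbered apart, 1 gene was called, in the opposite direction to *Tnfrsf9*. Conditions within detected cells gave 2 genes, and 13, 8, 0 and 0 for the looser threshold, the other scale, no trend and no filter, and 1 to 3 with a mouse left out. Within undetected cells 2 genes became 8, 6, 0 and 0 in the same order, 1 in cells with 1 α and 1 β chain and 1 to 2 with a mouse left out. Matching on UMIs gives no separate value for detected cells. Tfr against activated gave 34 genes, and 266 at the looser threshold, 113 on log2 of the mean corrected count, 62 with a count of 2 or more, 11 without the trend and 1 with no filter, and 24 to 43 with a mouse left out. The cause was not tested for any of these.

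The gap in detected share, -0.811 points, ran from -2.51 to 0.982 with a mouse left out. *Ly6a* turned to -0.0128 in the split with matched mitochondrial share and *Bcl6* to 0.00501 in sister cells. *Tnfsf8*, Tfr minus activated, turned to -0.58 on log2 of the mean corrected count. *Gm42031*, Tfr minus activated, was 0.00 and became 0.0184, 0.0414, 0.0163 and 0.0684 on that scale, without mice 34 and 36, in cells with 1 α and 1 β chain and with a count of 2 or more, and ran from -0.0166 to 0.0318 with a mouse left out. Of the other values for single genes, 1141 kept direction and side of the threshold, 144 lost the call and 14 gained it. Over all its alternatives, sharing of clonotypes stayed between -14.1 and -10.8 points and the difference in genes per cell between 58.5 and 102 (-11.9 to -11.1 and 64.4 to 79.8 with a mouse left out). Depth limits the split, since an undetected cell may hold *Foxp3* RNA that was not captured.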
